A study of Mus musculus with 6 samples.

Results

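The SLC25 family was followed in LT-HSCs, the long-term stem cells of the blood, with and without the Myc genes c-myc and N-myc. Members were the genes with a single symbol beginning with Slc25a and a number in the annotation of the array's probe sets. They came to 44 genes of the 18193 with a single symbol, and each was represented by its probe set with the highest mean of the 6 arrays. These rare marrow cells, which renew the blood for life, had been sorted by the surface markers Lin-Sca1+CD150+CD48-. The donor mice were 8 weeks old and on a mixed background. The double knockout (dKO) mice carried MxCre with the floxed alleles c-myc f2 and N-myc f2, and the control mice carried these alleles without MxCre. In the label of control replicate 2 the second allele is spelled M-Myc f2. All mice, controls included, received 2 daily doses of pI-pC, a synthetic double-stranded RNA that induces interferon and so switches on the Mx promoter that drives the recombinase, and marrow was taken 3 days after the last dose. MxCre is not restricted to stem cells, and no mice without pI-pC were part of the comparison. Each group had 3 arrays, and every array was made from its own pool of mice, 3 animals for dKO and 2 for control.

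SLC25 proteins are nuclear-encoded carriers that sit, with few exceptions, in the inner mitochondrial membrane, which is otherwise closed to charged metabolites. Most of them work by exchange, taking a solute in on one side as another leaves on the opposite side. In this way they pass ADP and ATP, phosphate, carboxylates, amino acids, nucleotides, cofactors and iron between the cytosol and the matrix. Quiescent stem cells are known to draw little on respiration, and Myc is known to raise the transcription of many genes of mitochondrial growth.

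Values are deposited RMA values on a log2 scale, so a difference of 1 is a 2-fold change. The medians of the arrays lay between 5.90 and 5.97, and arrays of 1 group correlated at 0.974 to 0.981 over probe sets, those of different groups at 0.956 to 0.969. The 3 negative control probe sets of the array read 2.13 to 3.92, and a mean inside that range is treated as background. Myc fell by 2.93 ± 0.20 (SE) and Mycn by 1.61 ± 0.22 in dKO arrays (limma adjusted p = 0.00137 and 0.00938). Of 6 measured stem cell markers, none lay in the negative control range in both groups, and Kit (-0.87 ± 0.12 SE) and Hlf (-1.66 ± 0.28) were lower in dKO arrays (limma adjusted p = 0.0101 and 0.0178). These were 33.3% of the list, where 8.05% of all genes were called. Fgd5, Procr, Slamf1 and Mecom (-0.45, -0.36, 0.08 and -0.04) were not called. The summed level of the 6 stem cell markers lay at 12.93 to 12.98 on control arrays, against 12.16 to 12.58 on those of dKO cells. The summed level of the megakaryocyte and platelet markers lay at 11.66 to 11.89 on control arrays, against 12.81 to 13.49 on those of dKO cells (log2 of the sum over 7 genes). Of these, Ppbp (5.67), Itga2b (1.16) and Pf4 (1.11) were called higher, Vwf (-1.04) was called lower, and Gp5, Gp9 and Gp1bb (0.54, 0.20 and -0.23) were not called. For the macrophage markers, with 5 genes, it was 7.50 to 7.84 and 8.05 to 8.17. Only C1qb was called, higher by 1.79, while C1qa, Cd68, Csf1r and Adgre1 differed by 0.49, 0.37, -0.13 and -0.46. The granulocyte sums over 9 genes overlapped between groups (9.81 to 11.35 and 8.52 to 10.23), as did those of 6 T and NK genes (7.82 to 7.99 and 7.98 to 8.32) and 5 B cell genes (8.46 to 9.37 and 8.31 to 9.19). Of the granulocyte genes, 8 of 9 had differences below 0 (median -0.59). In the T and NK list 5 of 6 differences were above 0, and in the B cell list 4 of 5. None of the genes in these lists was called, where 8.05% of all genes were. RNA quality was read from the Gapdh control probe sets. Their 3' signal exceeded the 5' signal by 2.12 to 2.36 in control arrays, and by 2.39 to 2.47 in dKO arrays. The part of other cells and of RNA quality in the results below was not tested. In sorted pools, fewer cells of a type and less RNA per cell cannot be told apart.

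Of the 44 carriers, 2 were higher in dKO cells, Slc25a11 and Slc25a25, and 2 were lower, Slc25a27 and Slc25a37, by limma with Benjamini-Hochberg adjusted p under 0.05. The called share of the members, 9.09%, lay near the 8.05% called among all 18193 genes, of which 4.49% were higher and 3.56% lower. The family therefore did not stand apart in how many of its genes were called. Only Slc25a27 differed by 2-fold or more, or 2.27% of the members beside 5.97% of all genes. The median difference over the carriers was -0.13, beside 0.01 over all genes, and 28 of 44 carriers (63.6%) had a difference below 0, beside 49.3% of all genes. With each array centred on its median, Slc25a32 and Slc25a34 turned from below to above 0. All dKO arrays lay below all control arrays for 11 carriers (25% of them, where the share over all genes was 14.2%) and above them for 5 (11.4%, where it was 15.8%). Without overlap in either direction there were 16 carriers, or 36.4%, beside 30% of all genes. At an unadjusted p under 0.05 there were 12 carriers (27.3%), beside 23.1% of all genes. For 31 of the 44 carriers the 95% interval of the difference lay within 1 log2 unit on either side of 0, beside 14071 of all 18193 genes.

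**Figure D1:**
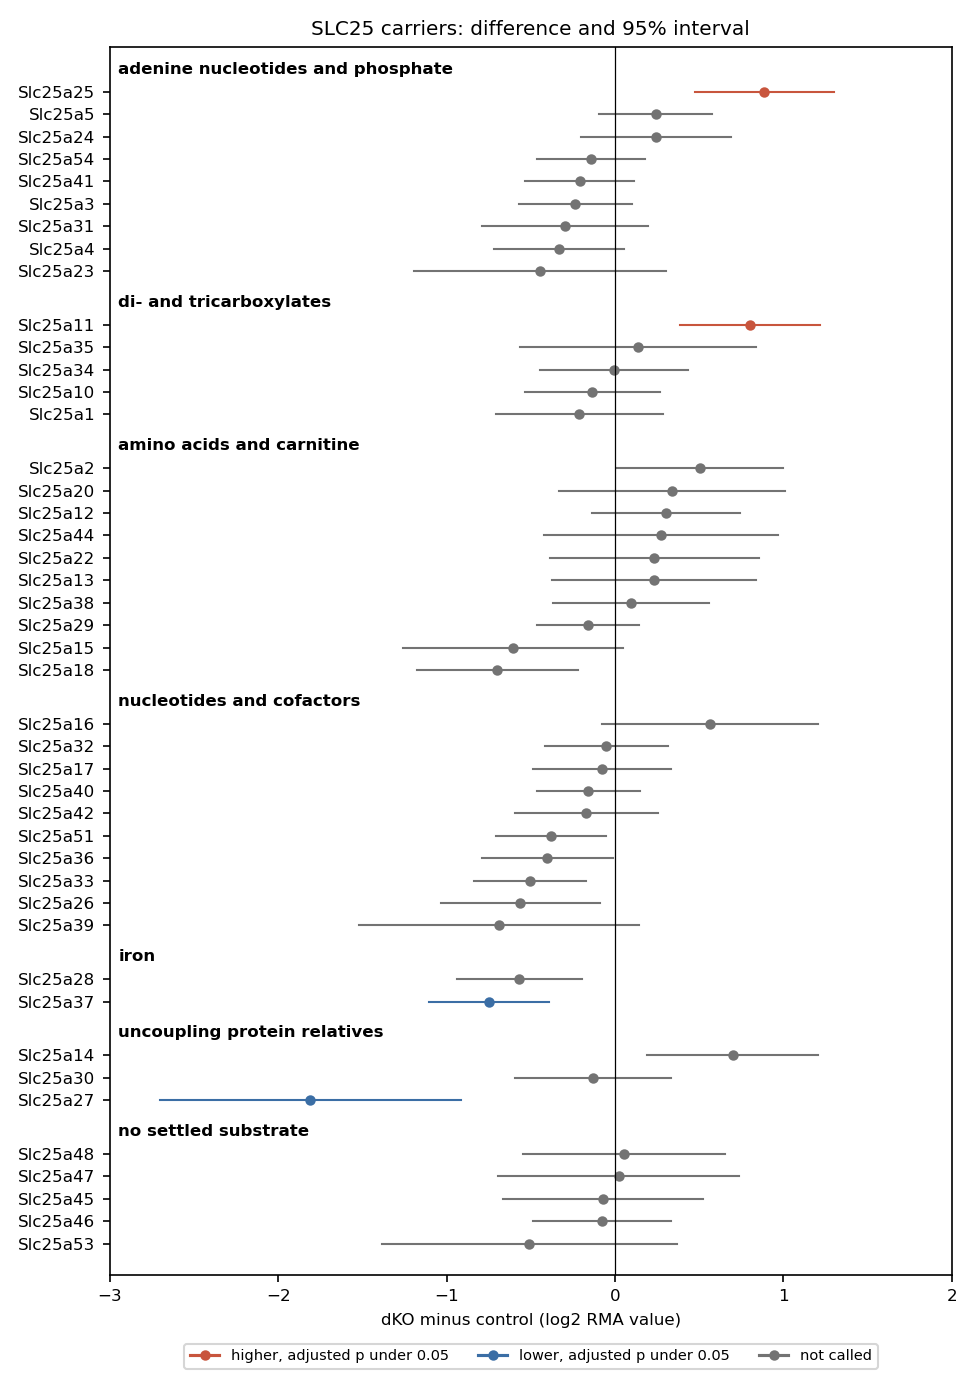
Difference between dKO and control arrays for the 44 SLC25 carriers by substrate class, as points with 95% intervals from limma on the log2 scale (3 arrays per group). Slc25a25 and Slc25a11 stand to the right of 0 and Slc25a37 and Slc25a27 to the left as the 4 called carriers, while 9 of the 10 carriers of nucleotides and cofactors have differences below 0.

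In control stem cells, 42 of the 44 carriers had a mean above the negative control range. The exceptions were Slc25a31, the germ cell isoform of the ADP/ATP carrier, at 2.56 ± 0.30 (SD, n = 3 arrays), and Slc25a54 at 3.28 ± 0.11. They lay in that range in dKO cells as well (2.27 and 3.13), so neither was measured above background. The remaining control means ran from 4.32 for Slc25a48 to 10.94 for Slc25a5, but levels of different probe sets are not comparable as amounts of RNA. The SD between control arrays had a median of 0.26 over the carriers and reached 0.76 for Slc25a39, where the median over all genes was 0.19.

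**Figure D2:**
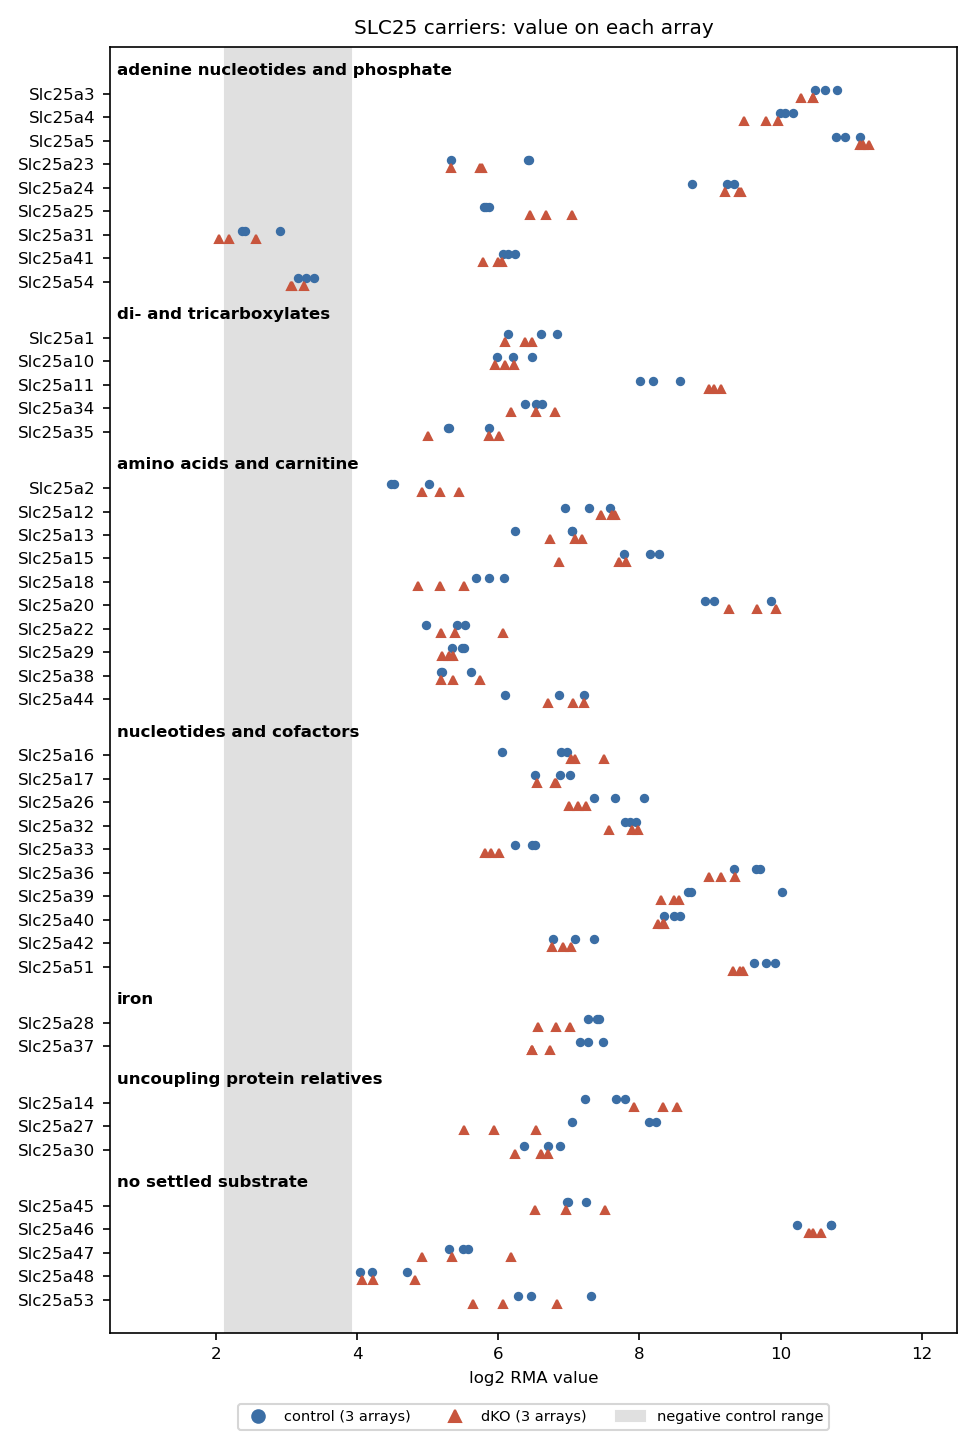
Deposited log2 RMA value of each of the 44 carriers on each of the 6 arrays, with control arrays as circles and dKO arrays as triangles, grouped by substrate class and ordered by gene number. The shaded band, from 2.13 to 3.92, covers the negative controls, and there Slc25a31 and Slc25a54 lie; values of different carriers are not comparable as amounts of RNA.

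Among the 9 carriers of adenine nucleotides and phosphate, Slc25a25 rose and the other 8 did not pass the test (class median -0.21). The called share was 11.1%, beside 8.05% of all genes. Slc25a25 is a calcium-regulated carrier that exchanges ATP-Mg for phosphate and so sets the size of the adenine nucleotide pool in the matrix. It read 5.82, 5.80 and 5.88 in control arrays and 6.45, 6.67 and 7.04 in dKO arrays. The control values were tightly grouped and all dKO values lay above them. The difference was 0.89 ± 0.18 (SE), or 1.85-fold (limma adjusted p = 0.0294). Its other probe sets gave 0.41 (adjusted p = 0.178), again without overlap, and -0.16 (adjusted p = 0.669), and the mean over the 3 probe sets gave 0.38 (adjusted p = 0.131), so the call rests on the probe set used. That probe set carries the suffix x_at, which marks probes that can match other sequences. With 1 array left out the call held only without dKO replicate 1, and adjusted p reached 0.0879 otherwise. The other ATP-Mg/phosphate carriers differed by 0.24 (Slc25a24), -0.45 (Slc25a23) and -0.21 (Slc25a41), with adjusted p from 0.447 to 0.534.

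The ADP/ATP carriers, which export ATP made by respiration, leaned in opposite directions without passing the test. Slc25a4, the isoform of heart and muscle, read 9.99, 10.07 and 10.18 in control and 9.48, 9.97 and 9.79 in dKO arrays, a difference of -0.33 ± 0.16 (SE, limma adjusted p = 0.300). Slc25a5, the isoform of dividing tissues, read 10.78, 11.13 and 10.92 in control and 11.25, 11.17 and 11.13 in dKO arrays, a difference of 0.24 ± 0.14 (limma adjusted p = 0.392). For each isoform the groups were separated by less than 0.03. All 8 Slc25a5 probe sets had differences above 0, from 0.12 to 0.34, and 3 of 4 Slc25a4 probe sets had differences below 0. The probe sets of a gene share the same arrays and are not replicates, and both representatives carry the suffix x_at. The within-array value of Slc25a4 minus Slc25a5, a contrast chosen after the values were seen, was lower by 0.57 in dKO arrays, from -0.86 ± 0.17 to -1.44 ± 0.29 (SD, n = 3 per group). Since neither isoform overlapped between groups and they differed in opposite directions, this value had to separate the groups, and no test is given for it. Slc25a3, which imports the phosphate for ATP synthesis, differed by -0.24 (adjusted p = 0.404), and its second probe set by 0.24.

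Of the 5 measured carriers of di- and tricarboxylates, Slc25a11 rose and 4 did not pass the test (20% called, beside 8.05% of all genes). Slc25a11 exchanges 2-oxoglutarate for malate and belongs to the malate-aspartate shuttle, which brings reducing equivalents from cytosolic NADH into the matrix. Its control values were 8.58, 8.20 and 8.01 and its dKO values 9.05, 9.15 and 8.99. All dKO arrays lay above all control arrays, with a gap of 0.41. The difference was 0.80 ± 0.18 (SE), a 1.74-fold increase (limma adjusted p = 0.0410). It had 1 probe set, and the call was kept only without control replicate 1 among the settings with 1 array left out, where adjusted p reached 0.121. The other carriers of the shuttle, the aspartate/glutamate exchangers Slc25a12 and Slc25a13, differed by 0.30 ± 0.19 and 0.23 ± 0.26 (SE, limma adjusted p = 0.420 and 0.678), with 95% intervals of -0.14 to 0.74 and -0.37 to 0.83. Slc25a1, the citrate exporter that feeds fatty acid synthesis, differed by -0.21, and the dicarboxylate carrier Slc25a10 by -0.13 (adjusted p = 0.639 and 0.723). Slc25a34 and Slc25a35, placed in this class by sequence kinship, overlapped between groups.

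None of the 10 carriers of amino acids and carnitine passed limma's adjusted threshold, where 8.05% of all genes did. An unadjusted p under 0.05 was found for 2 (20%, beside 23.1% of all genes). The class median was 0.23, with 7 of 10 differences above 0 (30% below 0, beside 49.3% of all genes). The smallest p belonged to Slc25a18, a glutamate carrier, which read 5.87, 6.08 and 5.68 in control and 5.51, 4.86 and 5.17 in dKO arrays. All its dKO values were below all its control values, and the difference was -0.70 ± 0.20 (SE, limma adjusted p = 0.0941). The second glutamate carrier, Slc25a22, differed by 0.23 (adjusted p = 0.684), with overlapping groups. The ornithine carriers of the urea cycle, Slc25a15 and Slc25a2, differed by -0.61 and 0.51 (adjusted p = 0.264 and 0.218), and both overlapped. Slc25a20, which carries acylcarnitines into the matrix for fatty acid oxidation, differed by 0.34 ± 0.29 (SE, limma adjusted p = 0.567), and its second probe set by 0.38. Slc25a38, a glycine carrier needed for haem synthesis, differed by 0.10, Slc25a44, a carrier of branched-chain amino acids, by 0.27, and Slc25a29, a carrier of basic amino acids, by -0.16. The other probe sets of Slc25a44 went the other way, by -0.27 and -0.28, and the mean over its probe sets was lower by 0.09 (limma adjusted p = 0.855). Those of Slc25a29 lay on both sides of 0, from -0.25 to 0.45.

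The 10 carriers of nucleotides and cofactors leaned downward with no call. Of these, 9 had differences below 0 (90%, beside 49.3% of all genes, class median -0.27). In 4 all dKO arrays lay below all control arrays (40%, beside 14.2%), and 4 had an unadjusted p under 0.05 (40%, beside 23.1%). No test compared the class with other genes. The smallest p was that of Slc25a33, which with Slc25a36 carries pyrimidine nucleotides for mitochondrial DNA and RNA synthesis. Slc25a33 read 6.48, 6.52 and 6.24 in control and 5.81, 5.90 and 6.01 in dKO arrays. The groups did not overlap, and the difference was -0.50 ± 0.14 (SE, limma adjusted p = 0.0868). Slc25a36 differed by -0.40 ± 0.16 (limma adjusted p = 0.216), and its 2 other probe sets by -0.67 and -0.09. The carriers of S-adenosylmethionine, Slc25a26, and of NAD, Slc25a51, had non-overlapping groups with differences of -0.56 ± 0.20 and -0.38 ± 0.14 (SE, limma adjusted p = 0.157 and 0.168). A further probe set of Slc25a51 went the other way, by 0.12.

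Slc25a39, a glutathione carrier, read 10.02, 8.68 and 8.73 in control and 8.49, 8.57 and 8.31 in dKO arrays. Control replicate 1 stood above the rest, also at 2 other probe sets with the suffix x_at (10.38 beside 8.16 and 7.76, and 7.89 beside 6.62 and 6.60). At a further probe set the control arrays read 6.81, 6.72 and 6.65, and the last was in the negative control range in both groups. The difference of -0.69 ± 0.35 (SE, limma adjusted p = 0.320) became -0.25 without that array. Its paralog Slc25a40 differed by -0.16. Slc25a16, linked to coenzyme A, was the only carrier of the class with a difference above 0, 0.57 ± 0.27 (SE, limma adjusted p = 0.292). Its control values of 6.05, 6.98 and 6.89 lay below its dKO values of 7.50, 7.03 and 7.09, with a gap of 0.05. Slc25a42, which carries coenzyme A, Slc25a17, a carrier of the peroxisome, and Slc25a32, which serves folate and FAD, differed by -0.17, -0.08 and -0.05. For Slc25a32 the difference was 0.01 with each array centred on its median and 0.07 without dKO replicate 1.

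Promoters are shown for the pyrimidine nucleotide carriers, 2 of the 7 carriers that hold the motif CACGTG. This is the E-box known to be bound by Myc with its partner Max. The windows are RefSeq's (GRCm38.p6), from 250 bases before to 50 after the annotated start, on the strand of the gene, with the motif in capitals. That of Slc25a33 lies at chr4:149774218-149774517 (minus strand), with the motif beginning 8 bases before the start. That of Slc25a36 lies at chr9:97110992-97111291 (minus strand), with the motif beginning 187 bases before the start.
Slc25a33: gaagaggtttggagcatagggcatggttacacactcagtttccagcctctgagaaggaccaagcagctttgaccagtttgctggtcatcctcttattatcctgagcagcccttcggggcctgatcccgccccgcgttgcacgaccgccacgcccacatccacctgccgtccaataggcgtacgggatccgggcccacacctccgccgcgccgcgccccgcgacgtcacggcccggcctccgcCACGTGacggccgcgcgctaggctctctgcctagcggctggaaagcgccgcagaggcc
Slc25a36: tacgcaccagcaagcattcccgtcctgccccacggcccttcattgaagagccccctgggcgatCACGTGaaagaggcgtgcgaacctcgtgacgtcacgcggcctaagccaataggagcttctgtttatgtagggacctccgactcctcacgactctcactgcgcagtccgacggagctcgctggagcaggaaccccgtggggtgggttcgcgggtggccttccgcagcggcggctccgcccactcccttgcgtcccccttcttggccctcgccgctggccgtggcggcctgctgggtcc
A promoter window was at hand for 34 of the 44 carriers. CACGTG, which reads the same on both strands, was in a window of 7 of them (20.6%), beside 10.3% of the 14368 genes of the array with a window. A gene was counted if any of its windows held the motif. Counted by window, 7.15% of all 32851 windows of this length held it, a share that is not comparable with those of genes. The 7 were Slc25a1, Slc25a13, Slc25a14, Slc25a15, Slc25a31, Slc25a33 and Slc25a36, of which 5 had differences below 0, 2 above, and 0 passed limma's threshold. Over all 44 carriers, 63.6% had differences below 0. The largest difference in size among the 7 was that of Slc25a14, and it lay above 0 (0.70, limma adjusted p = 0.112). Windows of Slc25a11 and Slc25a25 did not hold these letters, and Slc25a27 and Slc25a37 had no window. A match describes the sequence and does not show binding in these cells.

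Both iron carriers were lower in every dKO array than in any control array, as were 14.2% of all genes, and Slc25a37 passed the test. Slc25a37, mitoferrin-1, brings iron into the matrix for haem and iron-sulfur clusters and is best known from red cell precursors. It read 7.17, 7.27 and 7.49 in control and 6.47, 6.73 and 6.48 in dKO arrays, a fall of 1.68-fold (difference -0.75 ± 0.15 SE, limma adjusted p = 0.0319). The gap between the groups was 0.44. Slc25a28, mitoferrin-2, the form of most tissues, read 7.43, 7.27 and 7.39 in control and 6.81, 7.01 and 6.56 in dKO arrays, a difference of -0.57 ± 0.16 (SE, limma adjusted p = 0.0840). The call of Slc25a37 was lost with any 1 array left out, with adjusted p from 0.0578 to 0.101, while its difference stayed between -0.83 and -0.66. Of the 8 measured erythroid markers, 1 was called lower and 0 higher, where 8.05% of all genes were called. Their summed level lay at 9.14 to 9.27 on control arrays, against 8.20 to 8.77 on those of dKO cells. Of the 8 markers, 6 had differences below 0 (75%, beside 49.3% of all genes), but 6 of 8 overlapped between groups. Thus 25% did not overlap, beside 30% of all genes. Klf1, the master regulator of red cell genes, fell by 1.64 ± 0.26 (SE, limma adjusted p = 0.0150) as the only one called. Hba-a1, an alpha globin, and Rhag were in the negative control range in both groups. The part of erythroid cells in the lower Slc25a37 was not tested.

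Among the 3 relatives of the uncoupling proteins, Slc25a27 fell most of all carriers. Slc25a27, also called UCP4 and best known from brain, read 7.05, 8.14 and 8.24 in control and 5.51, 6.53 and 5.95 in dKO arrays. Control replicate 1 was the lowest control array, yet it remained 0.51 above the highest dKO array. The difference was -1.81 ± 0.38 (SE), a 3.51-fold decrease (limma adjusted p = 0.0351). A second probe set read 6.35, 6.05 and 6.84 in control and 4.63, 4.62 and 4.06 in dKO arrays, where control replicate 1 was no longer the lowest. It gave -1.98 ± 0.25 (SE, limma adjusted p = 0.00737), and another gave -1.62 ± 0.29 (adjusted p = 0.0212). The last differed by -0.59 (adjusted p = 0.314), with a dKO mean of 3.85 inside the negative control range. The mean over the 4 probe sets was lower as well (limma adjusted p = 0.00204). For the brightest probe set the call held only without control replicate 1 when arrays were dropped singly. Adjusted p reached 0.107 in those fits, and the difference ran from -2.19 to -1.57. Slc25a14, also called UCP5, read 7.67, 7.79 and 7.23 in control and 8.53, 8.33 and 7.93 in dKO arrays. Its dKO values were all higher, by 0.70 ± 0.22 (SE), but did not pass the test (limma adjusted p = 0.112). Slc25a30, known from kidney, differed by -0.13 and overlapped.

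**Figure D3:**
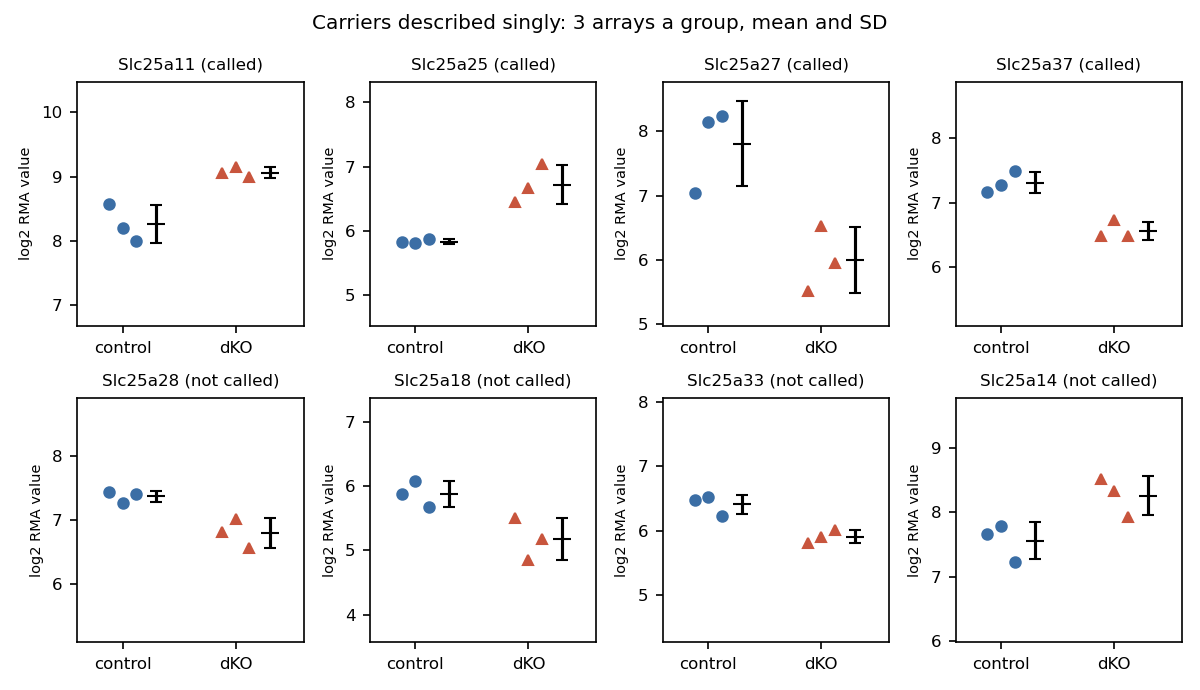
Log2 RMA values of 8 carriers on the 3 control arrays (circles) and the 3 dKO arrays (triangles), with the mean and SD of each group as black bars, on axes of equal span. In each of these carriers the groups do not overlap, as in 30% of all genes, but only Slc25a11, Slc25a25, Slc25a27 and Slc25a37 passed an adjusted p of 0.05.

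None of the 5 measured carriers without a settled substrate passed limma's threshold, 0 had an unadjusted p under 0.05, and all 5 overlapped between groups (class median -0.07). Over all genes, 8.05% were called, 23.1% had an unadjusted p under 0.05 and 30% did not overlap. The smallest p was that of Slc25a53, which read 7.31, 6.47 and 6.28 in control and 5.64, 6.06 and 6.84 in dKO arrays. Its difference of -0.51 ± 0.37 (SE, limma adjusted p = 0.502) was within the spread of the arrays. Slc25a46, an outer membrane protein of mitochondrial fission and fusion, differed by -0.08, and Slc25a45, Slc25a47 and Slc25a48 by -0.07, 0.02 and 0.05. Their 95% intervals were -0.49 to 0.33 for Slc25a46, -0.66 to 0.52 for Slc25a45, -0.70 to 0.74 for Slc25a47 and -0.54 to 0.65 for Slc25a48.

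The choice of probe set mattered in part of the family. Of 93 probe sets of the 44 carriers, 2 were called higher and 4 lower, together 6.45% beside 6.99% of the 45037 probe sets tested. Of the 23 carriers with several probe sets, 12 had differences of 1 sign and 11 of both signs. Slc25a27 was the carrier with more than 1 called probe set. In no carrier were probe sets called in opposite directions.

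**Figure D4:**
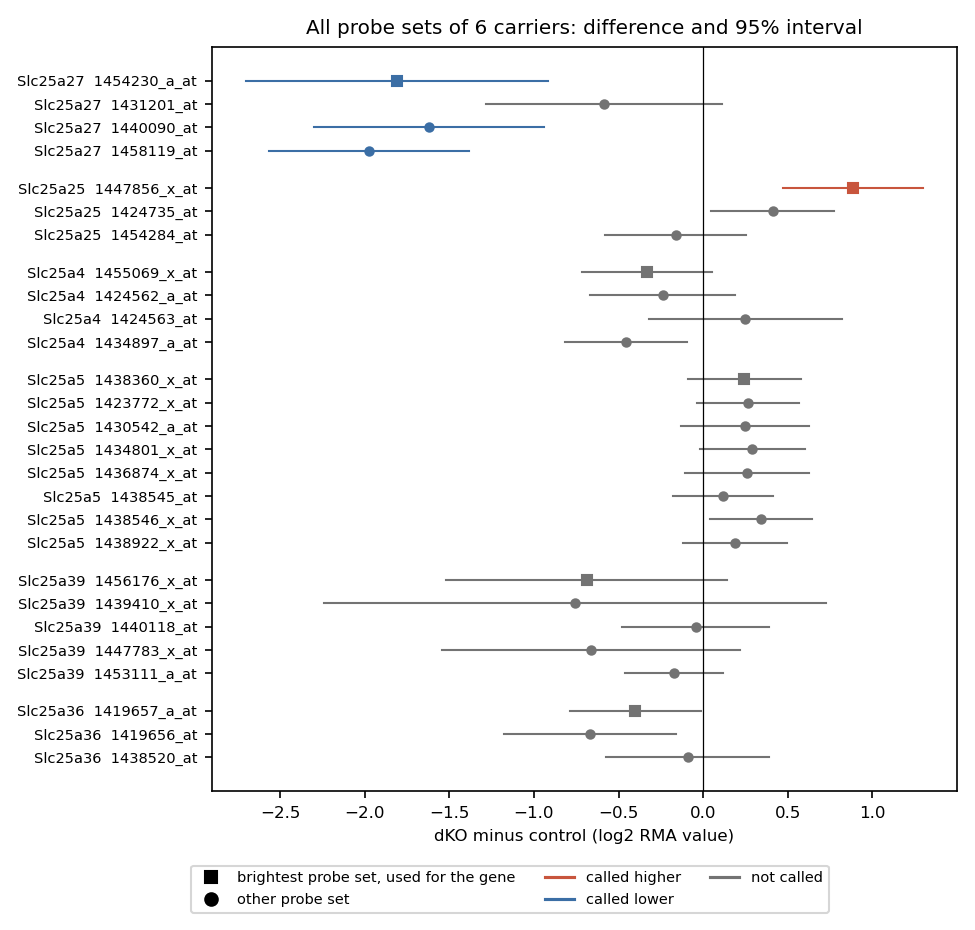
Difference between dKO and control arrays for every probe set of 6 carriers, with 95% intervals from limma on the log2 scale; squares mark the brightest probe set, which stands for the gene. Of the 4 Slc25a27 probe sets 3 were called lower, the 8 of Slc25a5 all lie above 0, and the 3 of Slc25a25 lie on both sides of it.

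Genes that insert or work beside the carriers were read from lists, each by its brightest probe set. Of those called below, Timm8a1 and Timm9 have 2 probe sets each, Cpt1a 3 and Timm8b 1. Their calls were not checked with arrays left out. Carriers reach the inner membrane through small Tim chaperones of the intermembrane space and the TIM22 complex. Of 10 genes of this route, 2 were lower and 1 higher, or 30% beside the 8.05% of all genes (median -0.08). The chaperones Timm8a1 and Timm9 fell by 1.02 ± 0.17 and 0.84 ± 0.19 (SE, limma adjusted p = 0.0164 and 0.0440). Timm8b, of the same chaperone family, rose by 0.61 ± 0.13 (limma adjusted p = 0.0331), from 7.46, 7.43 and 7.32 to 8.08, 7.95 and 8.02. Timm22, the channel of the complex, differed by 0.02. Of 17 other genes of mitochondrial transport, 1 was higher and 0 lower, or 5.88% beside 8.05% of all genes (median -0.01). An unadjusted p under 0.05 was found for 8 of them (47.1%, beside 23.1% of all genes). The called gene was Cpt1a, which makes the acylcarnitines that Slc25a20 carries. It read 9.24, 9.28 and 8.95 in control and 9.78, 10.10 and 9.94 in dKO arrays (difference 0.78 ± 0.16 SE, limma adjusted p = 0.0309). The porins Vdac1, Vdac2 and Vdac3, the pores of the outer membrane, differed by -0.01, 0.31 and 0.40 (adjusted p = 0.978, 0.256 and 0.127). Of 4 measured carrier relatives with other symbols, Ucp1, Ucp3, Mtch1 and Mtch2, 0 passed limma's threshold and 1, Mtch2 (0.60 ± 0.22 SE, limma adjusted p = 0.170), had an unadjusted p under 0.05. That is 25% of them, beside 23.1% of all genes.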

How the data were processed

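RNA of sorted cells was extracted with Trizol, amplified over 2 rounds with a kit for very small amounts and labelled with biotin, per the labels' protocols. The deposited values are log2 and come from RMA, a tool named in the submitters' processing notes without version or settings. RMA scales arrays to each other, so changes are relative, and differences of dim probe sets are compressed. The sample titles gave the group and the replicate number. Pools of mice are the replicates. The p-values weigh each difference against the spread between pools, which limma draws toward that of all probe sets. Pool size went with the group, 3 mice for dKO and 2 for control, so its part cannot be told apart from that of genotype. No genome build of the probe sets is given in the sources used here.

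All 45037 non-control probe sets were fitted with limma 3.58.1 (R 4.3.3; lmFit and eBayes, 4 residual and 3.19 prior degrees of freedom), with Benjamini-Hochberg adjustment over all of them and a threshold of 0.05. In simulated data of this size, 100 probe sets were changed by 1 and 100 by 2 on the log2 scale. Limma recovered 19% of the former and 82% of the latter, with 7 false calls. The real arrays gave 3146 called probe sets, and a Benjamini-Hochberg cutoff is stricter where fewer probe sets differ. The simulation therefore cannot tell what part of the changes of either size was found in the real arrays. Gene symbols came from the platform annotation, and a RefSeq gene table (GRCm38.p6) changed 0 of them. A probe set with several symbols, 1 of which was a member, was left out.

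The members, substrate classes and other lists were chosen with earlier results of these data known. Some listed carriers are not analysed here. Values in every array are given for called members and for the member of each class with the smallest p. Other members are named by class or were chosen after their values were seen. The alternatives were other scalings, removal of probe sets near the negative controls, a trended robust prior, weights per array, a replicate block, the mean over probe sets and leaving out each array.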

Additional observations from a re-analysis of the deposited data

How the results depend on the processing

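The same 4 carriers were called with arrays centred on their medians, with quantile normalization, with a filter above the negative controls, with a trended robust prior and with array weights. Equal replicate numbers are not known to pair the arrays: deviations from the group means correlated at -0.016, 0.0024 and 0.013 for equal numbers and up to 0.05 for unequal ones. With the replicate block, 0 carriers were higher, 1 (Slc25a27) was lower and 1530 probe sets were called over the array, against 3146. With the mean over all probe sets of a gene, tested over 18193 genes, 1 carrier was higher (Slc25a11) and 4 lower (Slc25a27, Slc25a28, Slc25a33 and Slc25a37). Slc25a11, Slc25a28, Slc25a33 and Slc25a37 have 1 probe set each, so averaging left their differences the same. The added calls of Slc25a28 and Slc25a33 came with the change of the set fitted and adjusted over, from 45037 probe sets to 18193 genes. With 1 array left out, 0 to 1 carriers were higher and 0 to 1 lower, and 1338 to 1674 probe sets were called over the array. The median difference over the carriers was -0.0705 with arrays centred (where that over all genes moved from 0.0052 to 0.0665), -0.10 after quantile normalization, -0.10 with the filter, -0.0815 with the mean over probe sets and -0.15 to -0.10 with 1 array left out. The 4 called carriers kept their sign in all 13 alternatives, but this was largely fixed in advance. Their groups did not overlap, so leaving out 1 array could not turn the sign. The filter, the trended prior and the replicate block left the differences themselves unchanged. The number of arrays limits the precision, and Slc25a31 and Slc25a54 lay at background.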
